A study of Homo sapiens with 8 samples.

Results

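The nuclear genes for the machinery of oxidative phosphorylation were followed in KM-H2, a Hodgkin lymphoma cell line, in an Ago2-immunoprecipitation (Ago2-IP) experiment. Members were the array probes, among those with a value in the deposited normalized table, whose gene symbol begins with NDUFA, NDUFB, NDUFC, NDUFS, NDUFV, SDHA, SDHB, SDHC, SDHD, UQCR, COX4 to COX8 or ATP5. The symbols were chosen without measured values, but the deposited table had been filtered on detection and on agreement of labellings. This left out 7 of 129 array probes with a member symbol and gave 122 of 16060 probes, for 90 genes. Of the 122 probes, 104 belonged to 77 genes for subunits. The other members were 9 assembly factor genes (11 probes), the pseudogenes SDHAP1 and SDHAP4 (4 probes), COX7A2L and the ATP synthase inhibitor ATP5IF1.

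The cells, grown in serum-containing medium, had been transduced with the empty pMSCV-PIG vector (EV) or with the sponge miR-155-sp, which is a transcript with repeated binding sites made to capture miR-155. How much of the microRNA it captured was not measured on these arrays. GFP-positive cells had been sorted from each, and those with miR-155-sp are called sponge cells. From both populations the total RNA (T) and the RNA recovered with an antibody against Ago2 were hybridized to Agilent arrays with 2 colors, once with the IP in Cy5 and the total RNA in Cy3 and once with the dyes exchanged. There was therefore 1 RNA sample for each of the 4 groups, no test across samples was possible, and the 2 dye orientations show technical spread only. After normalization a ratio is relative to the probes as a whole, and fewer cells of a type cannot be told apart from less RNA per cell. Transcripts whose IP/T was 2 or more are called enriched in the Ago2-IP fraction, and those at 0.5 or less depleted.

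Oxidative phosphorylation passes electrons from NADH (complex I) and succinate (complex II) through complex III and cytochrome c to oxygen at complex IV, and the proton gradient so built drives ATP synthase (complex V). Most subunits are encoded in the nucleus and imported, while the catalytic membrane cores of complexes I, III, IV and V also contain proteins made from mitochondrial DNA. Complex II is encoded in the nucleus alone and is at the same time an enzyme of the citric acid cycle. Argonaute proteins carry microRNAs to matching sites in mRNAs, so the IP/T ratio of a transcript measures how much of it was recovered with Ago2 relative to its abundance.

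The sponge is the one difference by design between the cell populations. The microRNA it was made to capture is given from RefSeq, 5′ to 3′, with the seed, bases 2 to 8, in capitals.
hsa-miR-155-5p: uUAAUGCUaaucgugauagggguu

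Sequence shared by members in front of their genes was described from RefSeq promoters (GRCh38.p14, 250 bases before to 50 bases after the start), which were at hand for 65 of the 77 subunit genes. Each run of letters was searched on both strands, and NRF1, ETS factors and YY1 are known regulators of genes for respiration. GCGCATGCG, part of the sequence bound by NRF1, was present in 10 of the 65 promoters (15.4%) and in 1.92% of all 35116 promoters of the same length, which include those of non-coding genes. ACTTCCG, bound by ETS factors such as GABPA, was present in 12 (18.5%) against 6.83% of all promoters. AAGATGGCG, part of the sequence bound by YY1, was present in 8 (12.3%) against 1.75%. Windows around the NRF1 letters, in capitals, are shown for SDHD and ATP5MC2, which were among the members with high IP/T, and for NDUFS6 and ATP5F1C, which had low IP/T. In ATP5MC2 the letters lie on the strand opposite to the gene, so their reverse complement is in capitals. The ETS letters of SDHD, apart from its NRF1 letters, follow. A match is a description of the sequence only.
SDHD, chr11:112086754-112086780, plus strand: gctgtgtttGCGCATGCGcgacgggtg
ATP5MC2, chr12:53676107-53676133, minus strand: cccgggtcaCGCATGCGCtgagccttc
NDUFS6, chr5:1801352-1801378, plus strand: agaagccgtGCGCATGCGttagcgcta
ATP5F1C, chr10:7788146-7788172, plus strand: ggagcttcgGCGCATGCGcgctgaggc
SDHD, chr11:112086786-112086810, plus strand: cgcctctcgACTTCCGgttcaccca

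Member transcripts gave bright signals. Of the 122 probes, 121 exceeded background clearly in each of the 8 channels, and the exception was NDUFC2 probe A_24_P364236, with 6. Of all 16060 probes, from a table already filtered on detection, 13435 did so in all 8 channels. The median log2 signal of members in EV total RNA was 13.48, against 9.71 over all 16060 probes, although the brightness of a probe also depends on its sequence. As a check of the cells, 7 of the 8 genes listed as marks of Hodgkin lymphoma lines were in the table (TNFRSF8, TRAF1, IRF4, CD40, BATF3, CCL17 and MIR155HG), and all of their probes were above background in every channel. CCL22 was not above background in any channel. None of the 4 T cell genes (CD3D, CD3E, CD3G and CD8A) was in the table, and of the 4 monocyte genes CD14 and CSF1R were, but not LYZ or CD163.

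As a group, members were spread around the same ratio as other transcripts. The median log2 IP/T of members was -0.18 in EV cells and -0.27 in sponge cells, against -0.25 and -0.26 over all probes. With the IP in Cy5 and in Cy3, the medians of members were -0.21 and -0.06 in EV cells. In sponge cells they were -0.29 and -0.16. Over all probes the same medians were -0.22 and -0.23 in EV cells and -0.24 in both orientations in sponge cells. The middle 50% of members lay between -0.45 and 0.47 in EV cells, and that of all probes between -0.72 and 0.45. In EV cells 12 members were enriched, where the share of all probes was 15.1%, and 6 were depleted, where it was 12.9%. In sponge cells the counts were 11 (16.0% of all probes) and 6 (13.9%). No member reached an IP/T of 4, a level passed by 6.36% of all probes in EV cells and by 6.78% in sponge cells.

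Signal level and ratio were not independent by construction. The signal used was that of total RNA, which is subtracted in log2 IP/T, so measurement error in it alone can give a negative correlation. Over all probes, which are not replicates, log2 signal and log2 IP/T in EV cells correlated at r = -0.24 (n = 16060), and over members at r = -0.03 (n = 122). Among the 2994 other probes whose EV total signal lay between the quartiles of the members (11.54 and 14.78), the median log2 IP/T was -0.35, 7.28% were enriched and 15.6% depleted. The middle 50% of these probes lay between -0.78 and 0.14. That of the 60 members within the same limits lay between -0.58 and 0.41, so it was not narrower. These 60 members had a median of -0.22, with 5.0% enriched and 3.33% depleted. Past 2-fold, members were thus fewer than probes of like signal on both sides, mainly on the depleted side. Genes for mitochondrial ribosomal proteins (100 probes) and for cytosolic ribosomal proteins (174 probes) both had a median of -0.38 in EV cells.

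The complexes differed in their medians. Over subunit probes, the median log2 IP/T in EV cells was -0.22 for complex I (50 probes), 0.95 for complex II (8 probes), -0.26 for complex III (11 probes), 0.03 for complex IV (13 probes) and 0.04 for complex V (22 probes). Complex II stood highest, but 4 of its 8 probes are of the gene SDHD. In sponge cells the medians were -0.31, 0.78, -0.41, 0.07 and -0.07, so complex II was again highest and complex III again lowest.

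**Figure D1:**
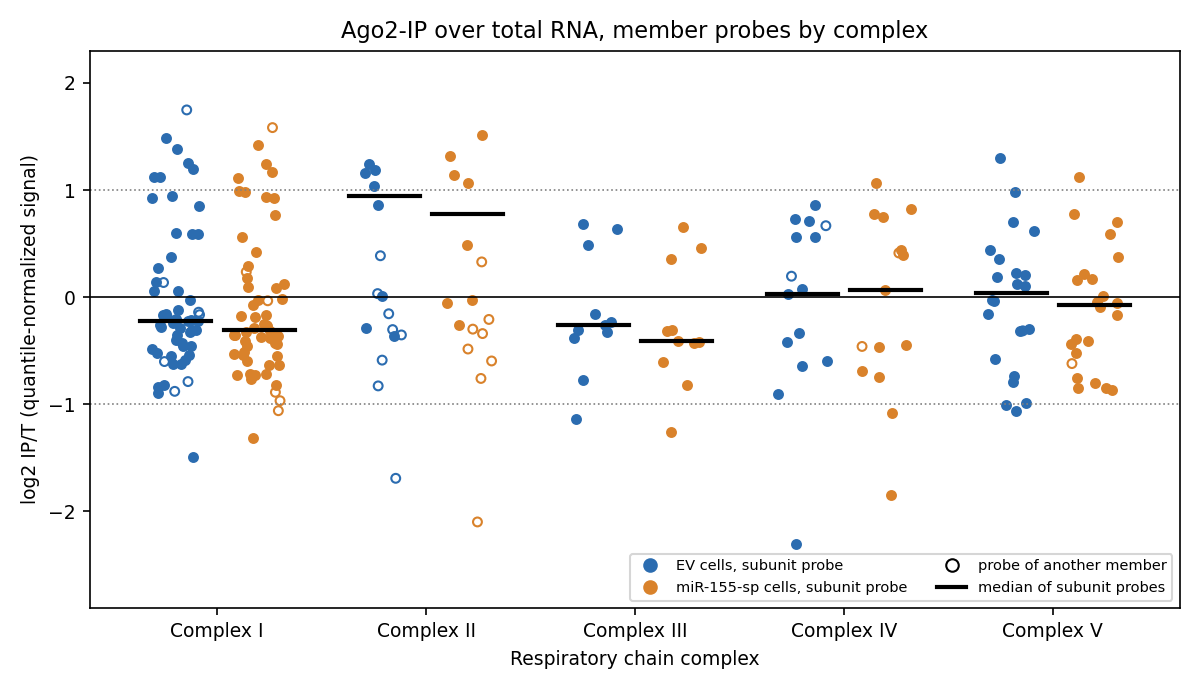
Log2 IP/T of every member probe by complex in EV and sponge cells. Each point is 1 probe (mean of both labellings), filled for subunits and open for assembly factors, pseudogenes, COX7A2L and ATP5IF1. Bars are medians of subunit probes and dotted lines mark 2-fold enrichment and depletion. Complex II has the highest medians, 0.95 and 0.78, and COX6A2 of complex IV is the lowest subunit point.

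Complex I, NADH dehydrogenase, combines a conserved catalytic core with many supernumerary subunits. For 7 of the 9 probes of core genes IP/T was below 1 in both orientations in EV cells (52.6% of all probes). NDUFS7 (probe A_23_P165090) had a log2 IP/T of -0.59 and NDUFS8 of -0.03 in EV cells.

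The 41 probes of 30 supernumerary genes included 13 above 1 (32.8% of all probes) and 24 below 1 in both orientations in EV cells. NDUFA7 had the highest ratio of any subunit probe in EV cells and the second highest, after the SDHD probe A_32_P60185, in sponge cells. Its log2 signal in EV cells was 14.87 (Cy3) and 14.73 (Cy5) in total RNA and 16.36 and 16.21 in the Ago2-IP. In sponge cells it was 14.79 and 14.63 in total RNA and 16.18 and 16.07 in the IP. Both labellings of the IP were thus above both labellings of the total RNA in each population. The IP/T was 2.79 in EV cells (2.53 with the IP in Cy5 and 3.08 with the IP in Cy3) and 2.67 in sponge cells (2.42 and 2.94).

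NDUFA5 was enriched through both of its probes in EV cells, with an IP/T of 2.39 (A_23_P215751) and 2.60 (A_32_P96641), and the values in sponge cells were 2.37 and 1.90. NDUFC1 had 2.17 in EV cells and 1.98 in sponge cells. With normexp background correction and quantile normalization, both NDUFA5 probes and NDUFC1 were below 2 in EV cells. NDUFV3, a subunit of the NADH-oxidizing module, was enriched by 2 of its 3 probes, with a log2 IP/T of 1.12 and 1.20. The third, A_24_P241995, had 0.05.

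At the other end, the subunit probes of complex I detected in all channels with the lowest ratios were NDUFS6, with a log2 IP/T of -0.89 in EV cells, and NDUFB11, with -0.84. Neither was depleted in the mean. NDUFC2 probe A_24_P364236 was depleted, with a log2 IP/T of -1.49 in EV and -1.32 in sponge cells, but it was dim, the second probe of the gene had -0.46 and -0.72, and after normexp correction it was no longer depleted.

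The assembly factors of complex I held the highest ratio of all members. NDUFAF6 had a log2 signal of 8.20 (Cy3) and 7.84 (Cy5) in EV total RNA and 9.86 and 9.67 in the EV IP. In sponge cells the values were 8.35 and 8.04 in total RNA and 9.94 and 9.62 in the IP. This gave a log2 IP/T of 1.75 for EV and 1.58 for the sponge, and by orientation its IP/T in EV cells was 2.77 and 4.07. The probe was the dimmest member in EV total RNA, and with normexp correction followed by loess and Aquantile its log2 IP/T was 0.67 in place of 1.75, so the call depended on the background correction. NDUFAF2, in contrast, had a log2 IP/T of -0.79, -0.60 and -0.88 by its 3 probes in EV cells.

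Complex II, succinate dehydrogenase, has 4 subunits whose ratios in EV cells were higher in order from the catalytic head to the membrane anchor. SDHA, the flavoprotein that oxidizes succinate, had an IP/T of 0.779 and 0.817 by its 2 probes in EV cells. SDHB, the iron-sulfur subunit, had 1.01. SDHC and SDHD anchor the enzyme in the membrane and hold the ubiquinone site. SDHC had 1.81 in EV cells (1.82 and 1.80 by orientation). In sponge cells this order was not kept, as SDHA probe A_32_P67259 was above SDHB. Log2 IP/T there was -0.26 and -0.03 for the SDHA probes, -0.05 for SDHB and 0.49 for SDHC.

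All 4 SDHD probes were enriched in EV cells, with an IP/T of 2.23, 2.37, 2.05 and 2.28, and in sponge cells, with 2.21, 2.49, 2.10 and 2.86. The probe with the closest orientations, A_32_P155631, had a log2 signal of 10.91 (Cy3) and 11.07 (Cy5) in EV total RNA, 12.31 and 12.15 in the EV IP, 10.95 and 10.89 in sponge total RNA and 12.22 and 12.26 in the sponge IP. No total value overlapped an IP value. For SDHB the values of the fractions overlapped (12.01 and 11.87 in EV total RNA, 12.04 and 11.85 in the EV IP), and for both SDHA probes the EV IP values lay below the EV total values. Probe A_32_P59486 was below 2 in EV cells under a common median or after normexp correction, and A_23_P138967 after normexp with quantile normalization. SDHA and SDHD have processed or duplicated copies in the genome, so hybridization of those copies to the probes was not separated.

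The SDHA pseudogenes did not follow the subunits. The 2 SDHAP1 probes had a log2 IP/T of -0.15 and -0.35 in EV cells. SDHAP4 was depleted by probe A_24_P489480, at -1.69 in EV and -2.10 in sponge cells, while A_32_P227845 had 0.03 and -0.48. Of the 4 assembly factors of complex II, SDHAF1, SDHAF3 and SDHAF4 had -0.83, -0.30 and -0.59 in EV cells, and SDHAF2, which helps attach the flavin to SDHA, had 0.39.

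**Figure D2:**
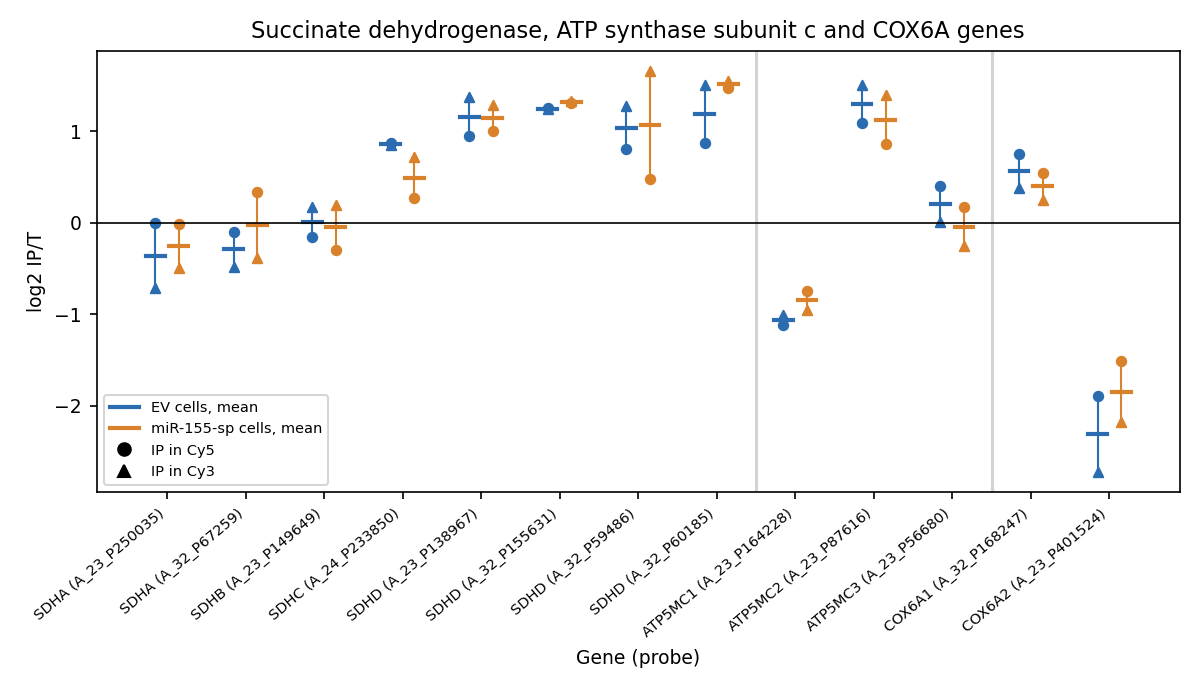
Log2 IP/T of the succinate dehydrogenase subunits, the 3 genes for ATP synthase subunit c and both COX6A isoform genes, by probe. Circles and triangles are the 2 dye orientations joined by a line, and bars are their means, for EV and sponge cells. The SDHD probes lie between 1.04 and 1.51 in the mean, ATP5MC1 and ATP5MC2 lie on opposite sides of 0, and COX6A2 has the lowest values.

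Complex III, ubiquinol-cytochrome c reductase, was measured by 11 member probes of 8 genes, which leave out CYC1 because of its symbol. None was enriched in either population. UQCR10 probe A_23_P68866 had the highest log2 IP/T in EV cells, 0.68, followed by UQCRB with 0.63, but the second UQCR10 probe, A_24_P66001, had -0.32. UQCRC1 and UQCRC2 are the core proteins that face the matrix, and their ratios differed, at 0.48 for UQCRC1 and -0.77 for UQCRC2 in EV cells and 0.65 and -0.82 in sponge cells. UQCR11 was depleted by probe A_24_P48617, at -1.14 and -1.26, a call that was absent after normexp correction. Its brighter probe, A_23_P56314, had -0.15 and -0.43. The Rieske iron-sulfur protein, UQCRFS1, had -0.23 and -0.38 by its 2 probes in EV cells.

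Complex IV, cytochrome c oxidase, contains subunits with tissue-specific isoforms. The dim isoform probes COX4I2, COX6B2, COX7A1 and COX7B2 were not in the deposited table. The COX6A pair was split. COX6A1, the isoform of most tissues, had an IP/T of 1.48 with EV and 1.32 with the sponge. COX6A2, known as the isoform of heart and skeletal muscle, had 0.202 (0.269 and 0.151 by orientation) and 0.277 (0.350 and 0.220).

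The COX6A2 probe gave a log2 signal of 14.72 (Cy3) and 15.11 (Cy5) in EV total RNA and 12.39 and 12.82 in the EV IP. In sponge cells it gave 14.51 and 14.95 in total RNA and 12.77 and 13.00 in the IP. All 4 total values were above all 4 IP values, and the probe was depleted under each of the 4 other normalizations and by each dye orientation. One of the 4, the deposited values, is quantile-normalized like the main values, so its agreement adds little here or below. It was the only depleted member in EV cells that remained so under every scaling, and of 12 enriched members 6 did. These were NDUFA7, ATP5MC2, both enriched probes of NDUFV3 and 2 probes of SDHD.

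The nuclear subunits next to the catalytic core lay on either side. COX4I1, the first nuclear subunit to join it, had a log2 IP/T of -0.42 and -0.59 in EV cells by its 2 probes. COX5A had 0.86 and 0.73, COX5B had 0.71, and COX6B1, which joins the enzyme dimer, had 0.08. COX6C had -0.90 in EV and -1.08 in sponge cells, depleted only in the latter. COX7A2 had -0.65, COX7B had 0.56, COX7C had -0.34 and COX8A had 0.03 in EV cells. COX7A2L, which joins complexes III and IV into supercomplexes, had 0.67 and 0.20 by its 2 probes.

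Complex V, ATP synthase, contains a ring of identical c subunits that turns with the proton flow. The 3 genes ATP5MC1, ATP5MC2 and ATP5MC3 encode the same mature c subunit behind different import sequences. Their ratios lay apart. ATP5MC1 had a log2 signal of 12.56 (Cy3) and 12.61 (Cy5) in EV total RNA and 11.60 and 11.44 in the EV IP, and an IP/T of 0.479. ATP5MC2 had 16.01 and 15.71 in total RNA and 17.21 and 17.10 in the IP, and an IP/T of 2.45. ATP5MC3 had 16.29 and 16.56 in total RNA and 16.57 and 16.69 in the IP, and an IP/T of 1.15.

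For ATP5MC1 the IP values were below the total values, for ATP5MC2 above them, and for ATP5MC3 also above them, by as little as 0.01 between the nearest labellings. In sponge cells the ratios of these genes were 0.555, 2.18 and 0.971, in the same order. Among the catalytic F1 subunits, ATP5F1A and ATP5F1B, which form the catalytic hexamer, had a log2 IP/T of -0.03 and 0.19 in EV cells. ATP5F1C, the rotating central stalk, had -0.73. ATP5F1D had -1.01 and -0.99 by its 2 probes, so that the first was just past the limit for depletion and the second just short of it. Of the peripheral stalk, ATP5PF had 0.98 and ATP5PB -0.58. ATP5IF1, the inhibitor, had -0.31.

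Different probes of a gene mostly gave like ratios. For the 28 genes with several probes, the median range of log2 IP/T between probes in EV cells was 0.20. In 4 genes it was over 1, namely SDHAP4, NDUFV3, NDUFC2 and UQCR10. For SDHAP4 both probes had a similar signal in EV total RNA (9.33 and 9.52). For NDUFV3, with 3 probes, the one that stood apart was the dimmest (8.69). NDUFC2 and UQCR10 had 2 probes each, and the dimmer one (8.16 and 9.22) had the lower ratio.

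The ratios were much alike in both cell populations, for members and for all probes. Across members, which are not replicates and share labelling batches and arrays, log2 IP/T in EV and sponge cells correlated at r = 0.96 (n = 122), and the 2 orientations at r = 0.86 in EV and r = 0.83 in sponge cells. Over all probes the same values were 0.97, 0.91 and 0.91 (n = 16060). Of the 12 members enriched with EV, 10 (83.3%) were enriched with the sponge too, against 92.4% of all 2432 probes so enriched. Of the 6 depleted in EV cells, 4 (66.7%) were depleted in both, against 75.8% of 2067.

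**Figure D3:**
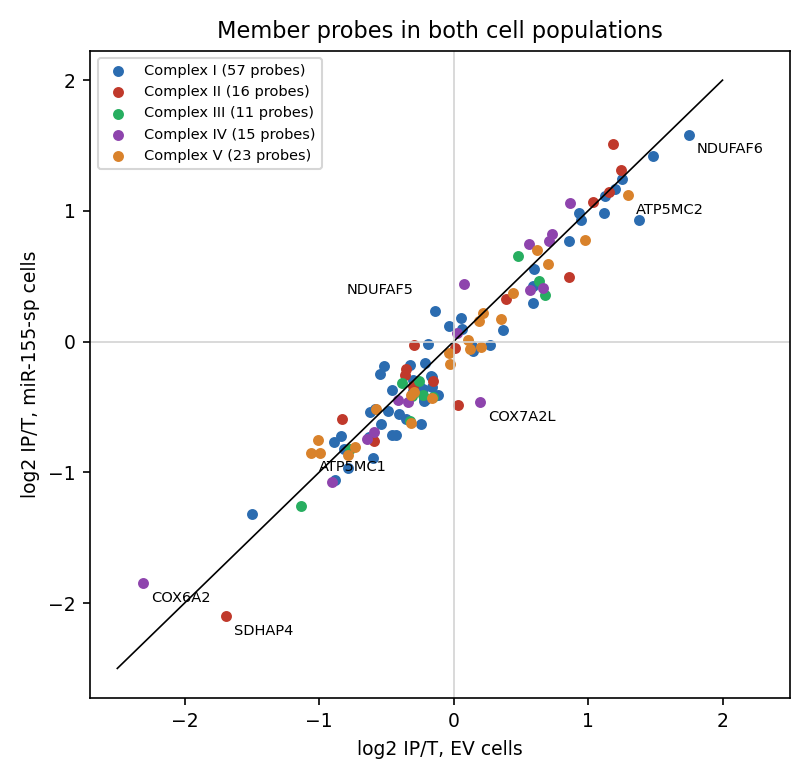
Log2 IP/T of each of the 122 member probes in EV cells (x axis) and sponge cells (y axis), colored by complex, with the line of equal ratios. Points lie close to the line (r = 0.96). COX7A2L probe A_24_P88800 is the farthest below it, by 0.66, and COX6A2 the farthest above it, by 0.46.

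The sponge comparison asks which transcripts are recovered less with Ago2 in cells that carry a miR-155 sponge. Differences in members were small. No member differed 2-fold between populations in IP/T, total RNA or Ago2-IP RNA, where 0.598%, 0.199% and 0.118% of all probes did. At 1.5-fold, 1 member differed in IP/T (5.04% of all probes), none in total RNA (2.38%) and 2 in Ago2-IP RNA (2.52%). The median difference in total RNA, sponge minus EV, was 0.005 on the log2 scale, against -0.001 over all probes. In total RNA 34 members were lower and 40 higher in both labellings, where the shares of all probes were 33.6% and 32.7%.

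In IP/T, however, members leaned to one side. The median difference was -0.08, with -0.07 for the IP in Cy5 and -0.09 for the IP in Cy3, against -0.0008 over all probes. IP/T was lower in sponge cells in both orientations for 65 members (53.3%), where 30.4% of all probes were, and higher in both for 27 (22.1%), where 31.1% were. Of the 60 members within the signal limits given above 30 were lower in both orientations, and of the 2994 other probes of like signal 30.6%. In the main processing the lean was in the IP fraction. There 64 members were lower in both labellings (33.2% of all probes), with a median difference of -0.08. Within the same signal limits 43.3% of members and 35.6% of other probes were lower in both IP labellings, with medians of -0.04 and -0.002. By the mean of both labellings 75 were lower there (51.4% of all probes). With each channel scaled to a common median, the median of members in the IP fraction was 0.03 and that of all probes also 0.03, so the direction in the IP fraction depended on the scaling. On that scaling the median difference in IP/T was -0.006 for members and 0.06 for all probes, which left members lower than all probes by 0.07. In total RNA it was then 0.04 for members and -0.03 for all probes. The fraction in which members stood apart from all probes thus also depended on the scaling.

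**Figure D4:**
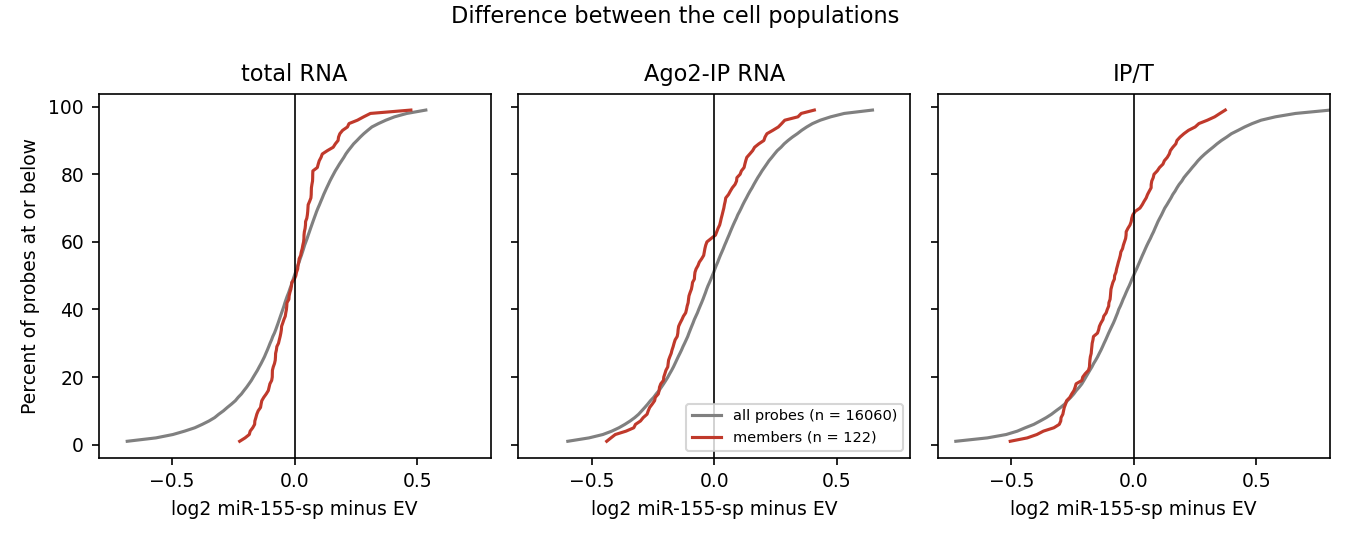
Cumulative percent of probes by the log2 difference between miR-155-sp and EV cells in total RNA, Ago2-IP RNA and IP/T, for the 122 members and all 16060 probes. The curves cross near 0 in total RNA and from the median upward the curve of members lies to the left in Ago2-IP RNA and IP/T, with medians of -0.08 in both.

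Complex I had 32 of 57 probes lower in IP/T in both orientations, complex II 6 of 16 and complex III 7 of 11. Complex IV had 5 of 15 and complex V 15 of 23. Higher in both, in the same order, were 12, 4, 1, 6 and 4 probes. Of all probes 30.4% were lower and 31.1% higher. Complexes II (37.5% lower) and IV (33.3%) were near that share, and their subunit probes had median differences of 0.05 and 0.04. The 18 members that are not subunits had a median difference of -0.17, with 14 lower and 2 higher in both orientations. Subunits alone had -0.07. The median was -0.04 for mitochondrial ribosomal protein genes, of which 36 of 100 probes were lower in both orientations, and -0.05 for cytosolic ribosomal protein genes, with 78 of 174.

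COX7A2L had the largest difference of a member. Its probe A_24_P88800 had a log2 signal of 10.89 (Cy3) and 10.68 (Cy5) in EV total RNA, 11.11 and 10.85 in the EV IP, 10.65 and 10.50 in sponge total RNA and 10.51 and 9.71 in the sponge IP. The low value was the Cy5 labelling of the sponge IP. The ratio was 1.15 for EV and 0.727 for the sponge, a log2 difference of -0.66 (-0.90 with the IP in Cy5 and -0.41 with the IP in Cy3). The second probe, A_23_P210348, differed by -0.25, and after normexp correction with loess the first differed by -0.40, under 1.5-fold. Further low differences in both orientations were those of SDHAP4 (-0.52 and -0.41), NDUFA8 (-0.39), a subunit of the intermembrane space side of complex I, and SDHC (-0.36). The first SDHAP4 value, of probe A_32_P227845, was -0.10 after either normexp correction, and its highest value under any alternative was 0.05. The second SDHAP4 probe, NDUFA8 and SDHC stayed below 0 under every alternative.

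The members with the largest positive differences in both orientations were COX6A2 (0.46), NDUFAF5 (0.38), COX6B1 (0.36), the SDHD probe A_32_P60185 (0.33) and the NDUFA9 probe A_24_P361006 (0.30). With 1 labelling alone, the difference went down to -0.04 for NDUFAF5, -0.03 for COX6B1 and -0.09 for this SDHD probe. The lowest values under any alternative were 0.33 for COX6A2 and 0.26 for this NDUFA9 probe. The second NDUFA9 probe, A_23_P76499, had 0.34. For SDHD the other 3 probes had differences of -0.01, 0.07 and 0.03.

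In total RNA the highest differences of one direction in both labellings were those of COX5A probe A_32_P98502 (0.55), ATP5F1E probe A_32_P123771 (0.51) and ATP5ME probe A_23_P125420 (0.32). COX5A by this probe had a log2 signal of 12.14 (Cy3) and 12.47 (Cy5) in EV and 12.83 and 12.88 in sponge total RNA, with no overlap. The second probe of each gene did not show it, at 0.05 for COX5A, 0.03 for ATP5F1E and -0.05 for ATP5ME. The lowest such values were those of ATP5MG probe A_24_P96527 (-0.23), COX7A2L probe A_24_P88800 (-0.21) and NDUFB3 (-0.19).

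Genes around the respiratory chain were described from lists of related genes. Assembly factors with other names (39 probes of 30 genes, of 35 listed) had a median log2 IP/T of -0.32 in EV cells. Of their probes 3 were enriched (7.69%) and 4 depleted (10.3%), where the shares of all probes were 15.1% and 12.9%. COX14, which handles the newly made COX1 protein, had 1.64, COA5 1.28 and COX10, an enzyme of heme A synthesis, 1.09. COA3 had -1.34 and -1.30 by its 2 probes, ECSIT -1.32 and COX11, a copper factor, -1.10 by 1 of 3 probes. Enzymes of the citric acid cycle (13 probes of 11 genes) had a median of -0.34. None was enriched (15.1% of all probes) and 1 was depleted (12.9%), OGDH (-1.02, with -0.28 and -1.75 by orientation). Regulators of mitochondrial genes (12 probes of 11 genes) had a median of -0.13. The enriched one was ESRRA, a nuclear receptor, at 1.30 (8.33% of these probes, against 15.1% of all). Cytochrome c1, CYC1, a complex III subunit whose symbol lies outside the prefixes, had -0.57. CYCS had 0.27 and -0.92 by its 2 probes. Of these 3 probes 2 were above background in all channels.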

How the data were processed

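Per the file headers, Agilent Feature Extraction had given the deposited intensity of each spot, with background subtracted and the dyes normalized within an array. The authors also deposited log2 values, quantile-normalized and filtered on detection and on agreement of labellings within 2-fold, for 16065 probes. These defined the probes used, 16060 of which had a scanner value. For a sample labelled with Cy3 the green and for Cy5 the red channel was read. Control spots and outlier spots (74 to 100 per channel) were left out, and 0 gene spots were saturated. Spots of a probe were averaged, log2 signals of 40981 probes were quantile-normalized over the 8 channels, and labellings were averaged. Log2 IP/T is the IP minus the total value. The deposited values differed from these by a median of 0.0006. Probes were named through their transcript identifiers in a RefSeq table (GRCh38.p14), which matched 73.8% of the probes. The array design is older, so probe coordinates are not given. The labels list the Cy3 and Cy5 labellings as replicates 1 and 2, but they are of 1 RNA, so counts and medians stand in for tests. The number of arrays limits precision.

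Members and lists were chosen with earlier results of these data known. Genes named were, for each complex, the 2 highest and 2 lowest subunit probes, members past 2-fold in both orientations, the largest differences with the sponge (5 each way for IP/T, 3 for total RNA), isoform families and genes with discordant probes, and other members and genes of related lists were named after their values were seen. Alternatives were other scalings, normexp correction (offset 50, limma 3.58.1, R 4.3.3), other filters and averages, single labellings and orientations, gene means and subunits alone. The ratio code (Python 3.11.15, numpy 2.4.6, pandas 2.3.3) was tested on simulated data.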

Additional observations from a re-analysis of the deposited data

Results flagged for a closer look

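NDUFAF5, an assembly factor that modifies a core subunit of complex I, was on opposite sides of an equal ratio in the populations. EV cells had a log2 IP/T of -0.14 (-0.13 and -0.15 by orientation), while cells with miR-155-sp had 0.24 (0.45 and 0.02). The difference was not tested. After normexp with loess and Aquantile both populations lay above 0 (0.06 and 0.28), so the opposite sides depended on the background correction, and with single labellings the sponge value went down to -0.07.

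Of 7 probes with a member symbol outside the deposited table, 4 were above background in 4 of the 8 channels each. Their log2 signals in EV total RNA were 7.39 for SDHAP3, 5.44 for COX4I2, 5.72 for COX6B2 probe A_23_P78571 and 6.12 for ATP5MC3 probe A_24_P174346. The other 3 probes, of COX7B2, COX7A1 and COX6B2, were above background in 0 channels.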

How the results depend on the processing

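For all members 9 results were recomputed under 15 alternatives. These were the medians, the counts enriched or depleted in EV cells, and the counts with a lower mean IP/T or Ago2-IP RNA in sponge cells. For named probes 208 values were recomputed under 9 alternatives. Other group counts, such as those in both orientations or labellings and those enriched or depleted in sponge cells, were not recomputed. Medians by complex or list, correlations and the agreement of probes were not recomputed. With each channel scaled to a common median, the difference of members in Ago2-IP RNA was 0.0327 in place of -0.08. Of 122 members 49 in place of 75 had a lower mean there in sponge cells (45.2% of all probes on that scaling, 51.4% in the main processing). In IP/T 62 in place of 84 had a lower mean (39.6% of all probes in place of 50.1%). In EV cells, enriched members numbered 6 in place of 12 after normexp with quantile normalization, where the share of all probes was 10.0% in place of 15.1%, and 6 as gene means (15.8% of all genes). Depleted members numbered 1 in place of 6 after normexp with loess and Aquantile (2.36% of all probes in place of 12.9%), 2 after normexp with quantile normalization (5.69%) and 2 as gene means (9.52% of all genes). Normexp with loess moved the median log2 IP/T of all probes in EV cells from -0.25 to -0.02, and that of members to -0.08. In EV cells the median of members was above that of all probes in the main processing but below it after both normexp corrections, with all member probes on the array and as gene means. The other recomputed medians and counts of all members moved by less than the spread between labellings or by less than 1.5 times. With 1 labelling alone, the difference in IP/T was between -0.08 and -0.06. Of 306 values of named probes past 2-fold under alternatives, 259 were also past it, and none of these 306 changed sign. Of all 1872 values of named probes under alternatives, most of them changes or ratios short of 2-fold, 275 moved beyond the spread between labellings and 142 took the other sign. No paired analysis was possible because the replicate numbers mark dyes of 1 RNA.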
